A study of Mus musculus with 18 samples.

Results

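The miR-125 family is described here through 4 mature miRNAs of C2C12 cells, the guide arms mmu-miR-125a-5p and mmu-miR-125b-5p and the opposite arms mmu-miR-125a-3p and mmu-miR-125b-1-3p. They were taken by name from a table of 2042 miRNA names, of which 1604 had a read in some library. The 4 were picked with their levels in input RNA known, because the 3p arms among them were lower in differentiated cells. The input contrast between the states, every arm ratio set between the states, and each member's level over input within a state are therefore given as a description with no test.

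C2C12 is a mouse myoblast line that forms myotubes when serum is reduced. The 18 small RNA libraries form 6 groups of 3: eluates of an MRTF-A 3'UTR bait, eluates of an MS2 control and input RNA, each from differentiated and from undifferentiated cells. Growth medium held 10% fetal calf serum, and differentiation took 7 days in 2% horse serum. The labels carry this treatment text for every sample and call the tissue of all of them myoblasts, so only the titles give the state. In miTRAP, a bait RNA with MS2 hairpins is held on a resin and the miRNAs that stay with it are sequenced. The MS2 control carries the hairpins without the 3'UTR, and the input is RNA of the cell extract before trapping. MRTF-A, encoded by Mrtfa, is an actin-regulated coactivator of serum response factor. The 3 libraries of a group are called A, B and C after the suffixes of the table's columns, which are not the numbers in the sample titles. Nothing states whether they came from separate cultures, so p-values measure library-to-library spread alone, and that spread may be technical.

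A miRNA hairpin yields 2 mature strands. The strand kept in Argonaute as the guide pairs with messenger RNAs mainly through its seed, bases 2 to 8, and the other strand is usually degraded. The miR-125 guides are the vertebrate relatives of worm lin-4, a regulator of developmental timing, and miR-125b has been described as a brake on myoblast differentiation in mouse cells. Their genes lie near members of the let-7 and miR-99/100 families.

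The mature sequences, from RefSeq for GRCm38.p6, are shown because both guides share a seed while the 3p arms do not. Capitals mark the seed.
miR-125a-5p: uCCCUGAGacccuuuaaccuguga
miR-125b-5p: uCCCUGAGacccuaacuuguga
miR-351-5p: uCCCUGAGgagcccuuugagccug
miR-125a-3p: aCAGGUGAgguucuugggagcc
miR-125b-1-3p: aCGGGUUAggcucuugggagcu
miR-125b-2-3p: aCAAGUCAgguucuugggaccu
All 4 members were found in the RefSeq table. The seed CCCUGAG is held by 5 names, miR-125a-5p, miR-125b-5p, miR-351-5p, miR-6367 and miR-6394. Each of the 3p seeds is held by 1 name. The first 13 bases of both guides are identical, and the 3p arms miR-125a-3p and miR-125b-1-3p match at 18 of 22 bases. miR-125a-5p lies on the plus strand at chr17:17830817-17830840 and miR-125a-3p at chr17:17830855-17830876. miR-125b-5p has 2 loci, chr9:41581940-41581961 and chr16:77646279-77646300. Its opposite arms can be told apart, miR-125b-1-3p at chr9:41581980-41582001 and miR-125b-2-3p at chr16:77646318-77646339. miR-125b-2-3p and miR-351-5p are not members and are shown for comparison. How reads that match 2 loci were counted is not given in the sources used here.

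Library depth was 107165 to 544504 recovered reads with the bait, 15562 to 39695 with the MS2 control and 294112 to 860828 in input. A single read was worth 3.33 to 15.3 CPM with the bait, 11.9 to 34.3 CPM with the MS2 control and 1.66 to 3.05 CPM in input. Levels are the authors' normalised CPM, a count scaled to library size. Intervals cover counting error only. Marker miRNAs of striated muscle, such as miR-206-3p, summed to 70292 to 95961 CPM in differentiated input, against 2620 to 7345 CPM in undifferentiated input. The defining blood miRNA miR-451a was at 0 in undifferentiated input and in all eluates, and the 4 listed blood names found in the table summed to at most 4.30 CPM in any group. The 5 neural names summed to 40.9 to 82.7 CPM in differentiated input and 208 to 311 CPM in undifferentiated input, with miR-124-3p at 0 in every group. The endothelial miR-126a-3p reached 42.7 CPM in 1 MS2 control library, where miR-126a-5p was at 0, and both names summed to at most 3.05 CPM in input. The 6 epithelial names summed to at most 137 CPM in the MS2 control and 9.18 CPM in input. The part of these cell types in the levels was not tested.

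In input RNA, miR-125a-5p was the only member with a higher level in differentiated cells. It had 870.2, 1154 and 73.1 CPM in libraries A, B and C of differentiated input, against 76.1, 55.6 and 54.7 CPM in undifferentiated input. Libraries A and B stood more than 10 times above every undifferentiated library, whereas library C lay at the level of the highest undifferentiated library. The log2 fold change, taken on log2(CPM + 10) here and below, was 2.62 ± 0.74 (SE, n = 3 each), and leaving out each library in turn gave 1.92 to 3.82.

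The second guide, miR-125b-5p, went the other way. It had 119, 143 and 101 CPM in differentiated input, against 368, 264 and 472 CPM in undifferentiated input, with no overlap. Its log2 fold change was -1.50 ± 0.34 (SE, n = 3 each).

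Both 3p arms among the members were lower in differentiated input, with no overlap of the groups. miR-125a-3p had 18.4, 31.9 and 10.8 CPM in differentiated input, against 381, 256 and 515 CPM in undifferentiated input. miR-125b-1-3p had 55.1, 62.0 and 30.1 CPM in differentiated input, against 420.2, 422 and 547 CPM in undifferentiated input. Their log2 fold changes were -3.70 ± 0.39 for miR-125a-3p and -3.04 ± 0.35 for miR-125b-1-3p (SE, n = 3 each). Of the 313 miRNAs tested in input, 62.3% were called, 16% higher and 46.3% lower, and their median log2 fold change was -0.64. The share of all 313 whose groups do not overlap was not counted, so lack of overlap sets no member apart. Relative to that median the members stood at 3.26 for miR-125a-5p, -0.87 for miR-125b-5p, -3.07 for miR-125a-3p and -2.40 for miR-125b-1-3p. The 3p arm that is not a member, miR-125b-2-3p, had 158, 162 and 98.9 CPM in differentiated input. In undifferentiated input it had 213, 150 and 278 CPM, and the groups overlapped. Its log2 fold change of -0.57 ± 0.36 (SE, n = 3 each) stood at 0.07 relative to the median, so the fall does not hold for every 3p arm of the family. In bulk RNA, fewer cells that express a miRNA and less of it per cell cannot be told apart.

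**Figure D1:**
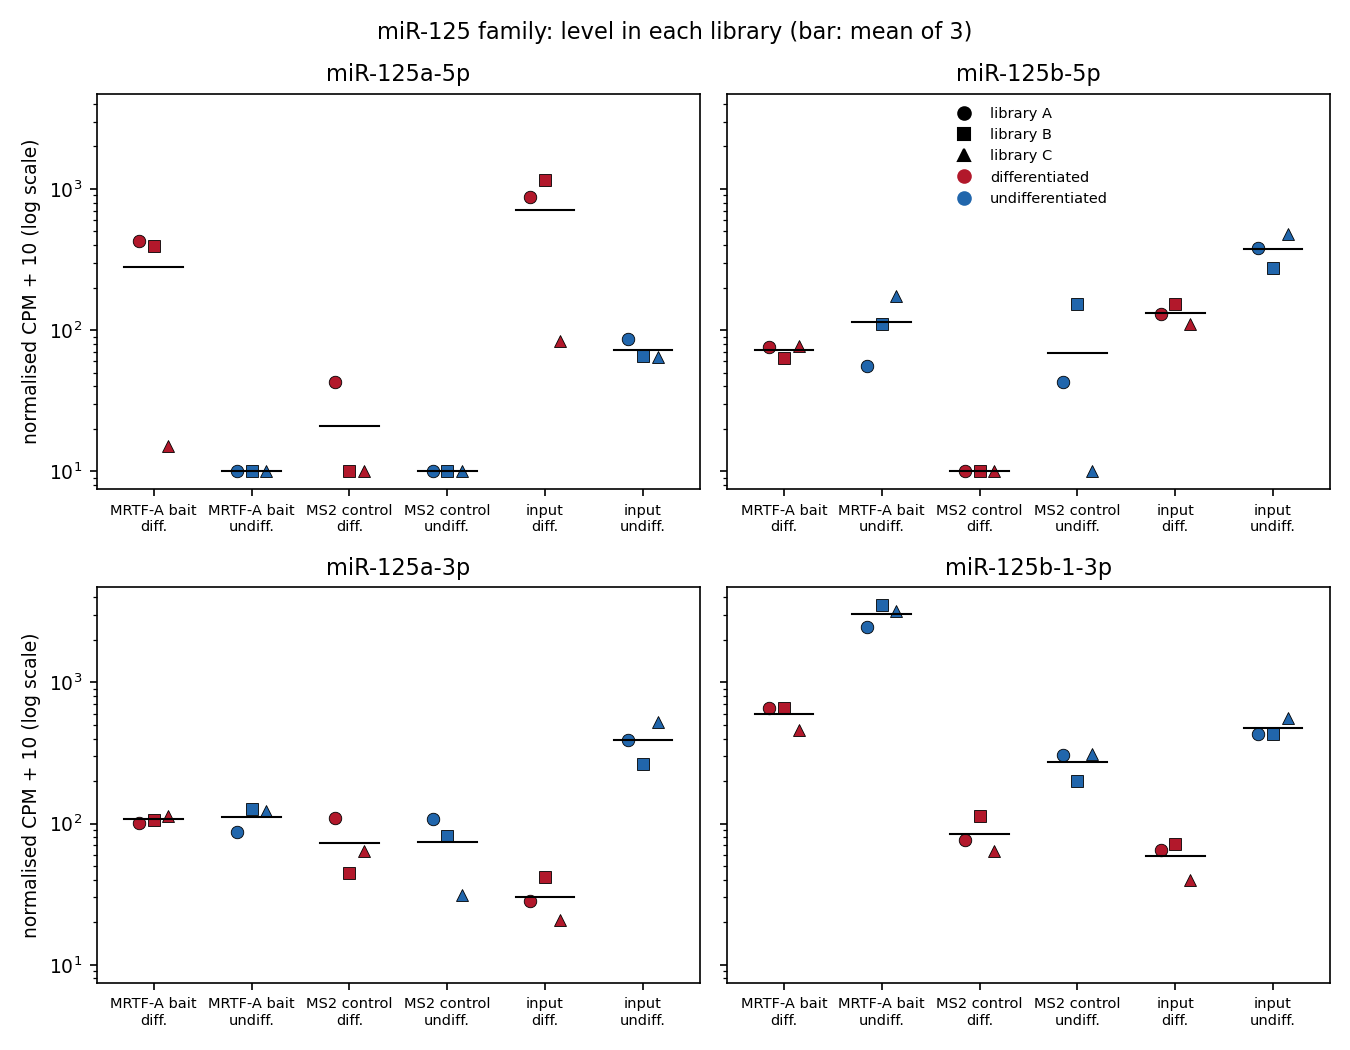
Normalised CPM plus 10, on a log axis, of each member in the 3 libraries of the 6 groups, with a bar at the mean of the group; a library at 10 had no read. In differentiated cells miR-125a-5p is low in library C of both bait and input, and miR-125b-1-3p is above 450 CPM in every bait library.

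The 2 strands of the miR-125a hairpin therefore exchanged rank in input. The 5p arm made up 97.2% of the reads of both arms in differentiated input (95% Wilson interval 96.1% to 98.0%, 1122 against 32 reads) and 12.9% in undifferentiated input (10.4% to 15.8%, 78 against 528 reads). By library the 5p share was 97.9%, 97.3% and 87.2% in differentiated input, against 16.7%, 17.9% and 9.59% in undifferentiated input. Library C, low for the guide, thus still had mostly 5p reads. For miR-125b the share of the 5p arm, set against miR-125b-1-3p, was 70.9% in differentiated input (65.2% to 76.1%) and 44.7% in undifferentiated input (41.8% to 47.6%). The 5p reads of miR-125b can come from either of its loci, so this share is not that of a single hairpin. Set against miR-125b-2-3p the share went the other way. It was 46.3% in differentiated input (41.5% to 51.2%) and 63.2% in undifferentiated input (59.8% to 66.5%).

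Among the 62 hairpins with both arms tested in input, the log2 ratio of 5p to 3p reads changed by 6.99 for miR-125a, the largest of these changes. The next were miR-99a with 4.17, miR-770 with 3.34 and miR-30b with 3.34. miR-125b, set as 5p against miR-125b-1-3p, was 8th with 1.69. Above it were miR-335, miR-3107 and miR-296 (2.52, 2.36 and 1.87), and below it miR-30e, miR-31 and miR-30a (1.65, 1.65 and 1.59). This miR-125b pair was put in by name and counted as a hairpin, though its 5p reads can come from both its loci. Set against miR-125b-2-3p the change was -0.97, so the rank of miR-125b depends on the 3p arm chosen. The changes ran from -3.86 to 6.99 with a median of 0.20, 36 upward and 26 downward, and the states did not overlap for 54.8% of the hairpins. The members were chosen on these values, so the ranks describe them and support nothing.

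**Figure D2:**
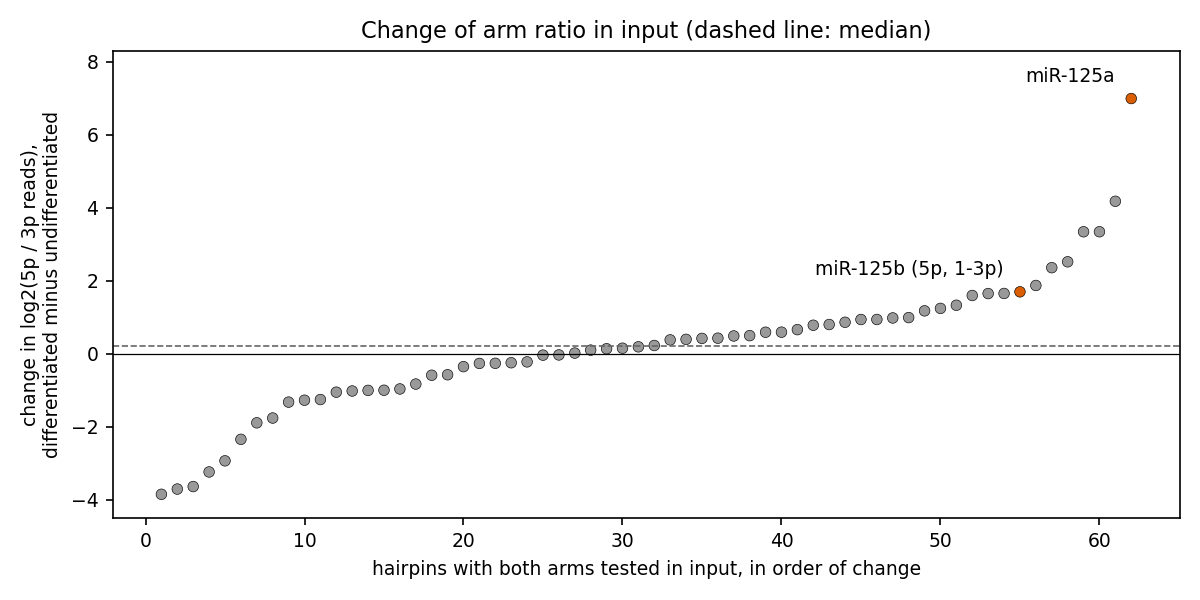
Change in the log2 ratio of 5p to 3p reads in input, differentiated minus undifferentiated, for the 62 hairpins with both arms tested, in order. Each point is a hairpin, save that miR-125b sets 5p reads of both its loci against miR-125b-1-3p. The dashed line is the median of 0.20. miR-125a (6.99) stands highest, and miR-125b in this pairing (1.69) is 8th.

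Of the 4 members, miR-125b-1-3p had the highest mean level with the MRTF-A bait in both states. miR-125b-1-3p had 649.6, 653 and 453 CPM with the bait in differentiated cells, against 66.4, 103 and 54.2 CPM with the MS2 control. Those MS2 values rest on 2, 3 and 2 reads. Their mean of 74.5 CPM lies under the 94.6 CPM that 3 reads in each library would give, so the size of the fold there is uncertain. In undifferentiated cells miR-125b-1-3p had 2438, 3522 and 3189 CPM with the bait, against 295, 189.9 and 299 CPM with the MS2 control (9, 16 and 14 reads). Bait and control did not overlap in either state, though the share of all miRNAs for which this holds was not counted. In undifferentiated bait eluates miR-125b-1-3p ranked 25th by mean level among 625 names with a read.

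With the bait, miR-125b-1-3p rose over the MS2 control by a log2 fold change of 2.84 ± 0.35 in differentiated cells (SE, n = 3 each; limma, adjusted p = 1.17e-05). In undifferentiated cells it rose by 3.51 ± 0.35 (SE, n = 3 each; limma, adjusted p = 1.70e-06). With library totals in place of the deposited scaling these were 1.48 in differentiated and 1.64 in undifferentiated cells, and both passed. It was the 1 member of 4 that passed the filter on low values in the eluates. Calls were common: of the 169 miRNAs tested in differentiated cells 79.3% were called, 57.4% higher and 21.9% lower with the bait. In undifferentiated cells 60.4% were called, 43.2% higher and 17.2% lower. The median log2 fold change of all 169 was 2.37 in differentiated and 1.16 in undifferentiated cells, which leaves miR-125b-1-3p 0.47 above it in differentiated and 2.35 above it in undifferentiated cells. The difference between the states was -0.67 ± 0.49 (SE, n = 3 in each of 4 groups; limma, adjusted p = 0.422). For that difference 13% of the 169 miRNAs were called by limma. edgeR called 0, with 40 at an unadjusted p under 0.05, and DESeq2 called 13.

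Its counterpart from the second locus, miR-125b-2-3p, was also recovered. It had 1155, 1163 and 1311 CPM with the bait in differentiated cells, against 99.6, 172 and 81.2 CPM with the MS2 control, a log2 fold change of 3.32 ± 0.81 (SE, n = 3 each; limma, adjusted p = 0.00246). In undifferentiated cells it had 659, 324 and 151 CPM with the bait, against 131, 23.7 and 0 CPM with the MS2 control, and rose by 3.19 ± 0.81 (SE, n = 3 each; limma, adjusted p = 0.00451). Its MS2 values rest on 3, 5 and 3 reads in differentiated and 4, 2 and 0 reads in undifferentiated cells. The undifferentiated MS2 mean of 51.7 CPM lies under the 66.0 CPM that 3 reads in each library would give. The size of the fold is therefore uncertain in both states. The balance of the 2 loci differed with state. In the bait eluates the mean log2 ratio of miR-125b-1-3p to miR-125b-2-3p was -1.06 in differentiated and 3.21 in undifferentiated cells. In input it was -1.52 and in the MS2 control -0.54 in differentiated cells, against 1.14 in input and 2.89 in the MS2 control of undifferentiated cells. The states did not overlap in any kind of library, though the share of all such ratios for which this holds was not counted. In input and with the bait, miR-125b-2-3p had more reads in every differentiated library and miR-125b-1-3p in every undifferentiated library. The differentiated MS2 libraries held 7 reads of miR-125b-1-3p against 11 of miR-125b-2-3p, too few to order them.

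The other 3 members did not pass the filter on low values in the eluates. miR-125a-5p had 414, 383 and 5.14 CPM with the bait in differentiated cells (95, 115 and 1 reads), against 33.2, 0 and 0 CPM with the MS2 control (1 read in all). The pooled ratio was 28.0, with a 95% counting interval of 4.98 to 1112, and library C held 1 of the 211 bait reads. In undifferentiated cells miR-125a-5p had no read in any of the 6 eluate libraries. miR-125b-5p had 65.4, 53.3 and 66.9 CPM with the bait in differentiated cells and no read with the MS2 control. The MS2 libraries are shallow: 3 reads in each would give a mean of 94.6 CPM, so no fold is given for miR-125b-5p there. In undifferentiated cells miR-125b-5p had 46.0, 99.7 and 164 CPM with the bait, against 32.8, 142 and 0 CPM with the MS2 control, and the groups overlapped.

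miR-125a-3p had overlapping levels with bait and control in both states. It had 91.6, 96.6 and 103 CPM with the bait in differentiated cells, against 99.6, 34.3 and 54.2 CPM with the MS2 control. In undifferentiated cells it had 76.7, 116 and 113 CPM with the bait, against 98.5, 71.2 and 21.3 CPM with the MS2 control. Each MS2 value rests on 1 to 6 reads. Without the filter on low values, limma gave miR-125a-3p a log2 fold change of 0.66 ± 0.55 in differentiated (adjusted p = 0.471) and 0.76 ± 0.55 in undifferentiated cells (adjusted p = 0.409; SE, n = 3 each). In the same fit both guides passed the threshold in differentiated cells, miR-125a-5p with adjusted p = 0.041 and miR-125b-5p with adjusted p = 0.0126, where 12.9% of 1151 miRNAs were called higher. The control levels there rest on 1 and 0 reads, so no fitted fold is given. In undifferentiated cells, where 8.86% were called higher, miR-125b-5p had 1.34 ± 0.76 (limma, adjusted p = 0.373; SE, n = 3 each) and miR-125a-5p had no read in either group.

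Set against input, miR-125b-1-3p stood higher with the bait in both states and the guides stood lower. All 4 members passed the filter among 305 miRNAs tested. The members were chosen on their input levels, so their values over input describe them and no call of a member is read from them. In differentiated cells 62% of all miRNAs tested were called, 31.1% higher and 30.8% lower, with a median of -0.14. miR-125b-1-3p had a log2 fold change of 3.36 ± 0.35 and miR-125a-3p of 1.88 ± 0.49 (SE, n = 3 each). miR-125b-5p had -0.86 ± 0.69 and miR-125a-5p had -1.69 ± 1.09 (SE, n = 3 each). Library C was low for miR-125a-5p in both groups: leaving out bait library C alone gave -0.11, and leaving out input library C alone gave -2.89. Same-suffix libraries of these 2 groups deviated together, with correlations of 0.155, 0.340 and 0.469 for A, B and C, although bait B followed input A more closely (0.324) than bait A did. miR-125a-5p was lower with the bait in each of these pairs, at 414 CPM with the bait and 870.2 CPM in input for A, 383 and 1154 CPM for B, and 5.14 and 73.1 CPM for C. With the suffix as a block in these 6 libraries the values were the same, -1.69 for miR-125a-5p and -0.86 for miR-125b-5p. Both passed the threshold that they missed without the block. The block was chosen after the data were seen, and these calls over input are not read either.

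In undifferentiated cells 68.5% of all miRNAs tested were called over input, 23.3% higher and 45.2% lower with the bait, with a median of -1.04. miR-125b-1-3p had 2.69 ± 0.35, 3.72 above that median, whereas miR-125a-3p had -1.78 ± 0.49 and miR-125b-5p had -1.85 ± 0.69 (SE, n = 3 each). Relative to the median miR-125a-3p stood at -0.74 and miR-125b-5p at -0.81. miR-125a-5p had no read with the bait, against 78 reads in input, and was at least 1.71-fold lower with the bait, where 3 reads in each bait library set the bound. With size factors by relative log expression (RLE) the values were nearer to 0, at -0.55 for miR-125a-3p and -0.62 for miR-125b-5p. The mean bait level of miR-125a-3p was 97.0 CPM in differentiated and 102 CPM in undifferentiated cells, while its mean in input was 20.4 CPM in differentiated and 384 CPM in undifferentiated cells.

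**Figure D3:**
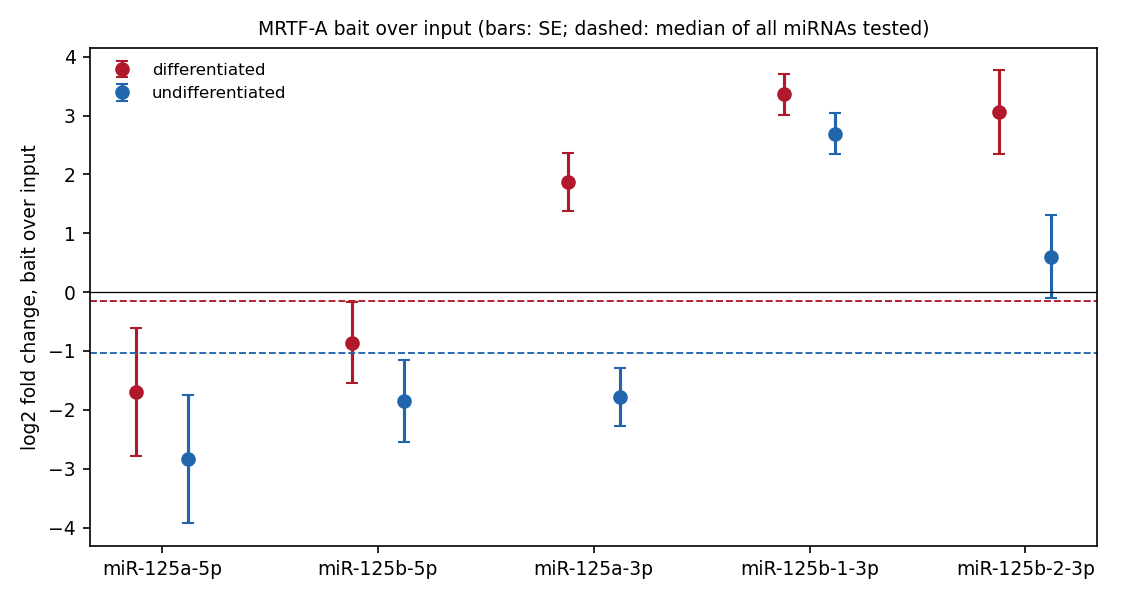
Log2 fold change of bait over input, on log2(CPM + 10), for the 4 members and miR-125b-2-3p in differentiated (left of each pair) and undifferentiated cells, with bars for the SE (n = 3 each) and dashed lines at the medians of all miRNAs tested, -0.14 and -1.04. miR-125b-1-3p lies above both lines in both states, at 3.36 in differentiated and 2.69 in undifferentiated cells.

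The MS2 control against input gives the background of the resin and the hairpins. In differentiated cells 69.2% of the 305 miRNAs were called, 15.4% higher and 53.8% lower, with a median of -1.58. miR-125b-5p had no read with the MS2 control and was at least 1.28-fold lower than in input. miR-125a-5p had a pooled ratio of 0.0143 to input (1 against 1122 reads). miR-125a-3p had 1.22 ± 0.49 on 6 reads and miR-125b-1-3p had 0.52 ± 0.35 on 7 reads (SE, n = 3 each).

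In undifferentiated cells 71.1% of the 305 miRNAs were called, 8.52% higher with the MS2 control and 62.6% lower, with a median of -2.19. miR-125b-5p had -3.19 ± 0.69 and miR-125a-3p had -2.54 ± 0.49 (SE, n = 3 each). miR-125a-5p had no read with the MS2 control, and 3 reads in each library would exceed its input level, so no fold is given. miR-125b-1-3p had -0.82 ± 0.35 (SE, n = 3 each), a direction that turned with library totals (0.13), RLE factors (1.06) and DESeq2 (1.05). Its bait over input was positive under every scaling tried.

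A ratio of both arms within a library does not depend on that scaling, and its difference from input was averaged over the states, while the members were chosen on the difference between them. Input levels were known when the members were picked, so the tests of these ratios against input may still carry that choice. For miR-125b the log2 ratio of 5p to 1-3p was lower with the bait than in input, with a difference of -4.55, which was -4.52 in differentiated and -4.58 in undifferentiated cells (exact permutation within states, 2-sided, p = 0.005, the smallest it can give; 0.0225 adjusted over 9 tests). The 5p share with the bait was 9.22% in differentiated cells (6.94% to 12.2%) and 3.24% in undifferentiated cells (2.25% to 4.64%), and no bait library overlapped an input library. With the MS2 control the ratio was also lower than in input, with a difference of -3.05 (exact permutation, p = 0.01, adjusted 0.03). Between bait and MS2 control the difference was -1.50 (exact permutation, p = 0.035, adjusted 0.0788), which misses the threshold. It passed without differentiated bait library C (-1.62) or undifferentiated MS2 library C (-2.06). The MS2 values rest on 0 of 7 reads from the 5p arm in differentiated cells and 13 of 52 in undifferentiated cells. Of those 13, 12 were in library B, whose 5p share of 42.9% lay within the range of undifferentiated input, 38.5% to 46.7%. When MS2 libraries rich in human-named reads were left out, the MS2 control over input difference was -2.96 and missed the threshold (exact permutation, adjusted p = 0.15).

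For miR-125a the log2 ratio of 5p to 3p was lower with the bait than in input, with a difference of -2.97 (exact permutation within states, p = 0.005, adjusted 0.0225), which was -4.31 in differentiated and -1.63 in undifferentiated cells. By library the 5p share with the bait was 81.9%, 79.9% and 4.76% in differentiated cells and 0 of 28 reads in undifferentiated cells, which allows a share of up to 12.1%. Without differentiated bait library C the difference was -1.996. The test missed the threshold without differentiated input library A (-2.70) or B (-2.79), each with adjusted p = 0.075 by the exact permutation test. No undifferentiated bait or MS2 library held a 5p read, so the added 0.5 read and the 3p reads set those log2 ratios. The size of the differences in undifferentiated cells is therefore uncertain, and the tests of miR-125a over both states rest in part on that added value. The 5p to 3p ratio of miR-125a differed by 0.17 between bait and MS2 control (exact permutation, p = 0.875, adjusted 0.875). That mean joins opposite differences, 1.83 in differentiated and -1.49 in undifferentiated cells. The MS2 side held 1 against 6 reads in differentiated and 0 against 10 in undifferentiated cells, so a like arm balance cannot be read from it. Between MS2 control and input the ratio differed by -3.14 (exact permutation, p = 0.05, adjusted 0.09), which was -6.14 in differentiated and -0.13 in undifferentiated cells. That test passed without undifferentiated MS2 library C, at -3.41. The ratio of the 2 guides, miR-125b-5p to miR-125a-5p, passed in none of the 3 comparisons by the exact permutation test. Its adjusted p by that test was 0.598 for bait over MS2 control, 0.488 for bait over input and 0.72 for MS2 control over input. Neither guide had a read in differentiated MS2 libraries B and C or undifferentiated MS2 library C, so the added 0.5 read set their log2 ratio to 0. miR-125a-5p had no read in any undifferentiated eluate. These tests rest in part on the added 0.5 read, and no conclusion is drawn from them.

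**Figure D4:**
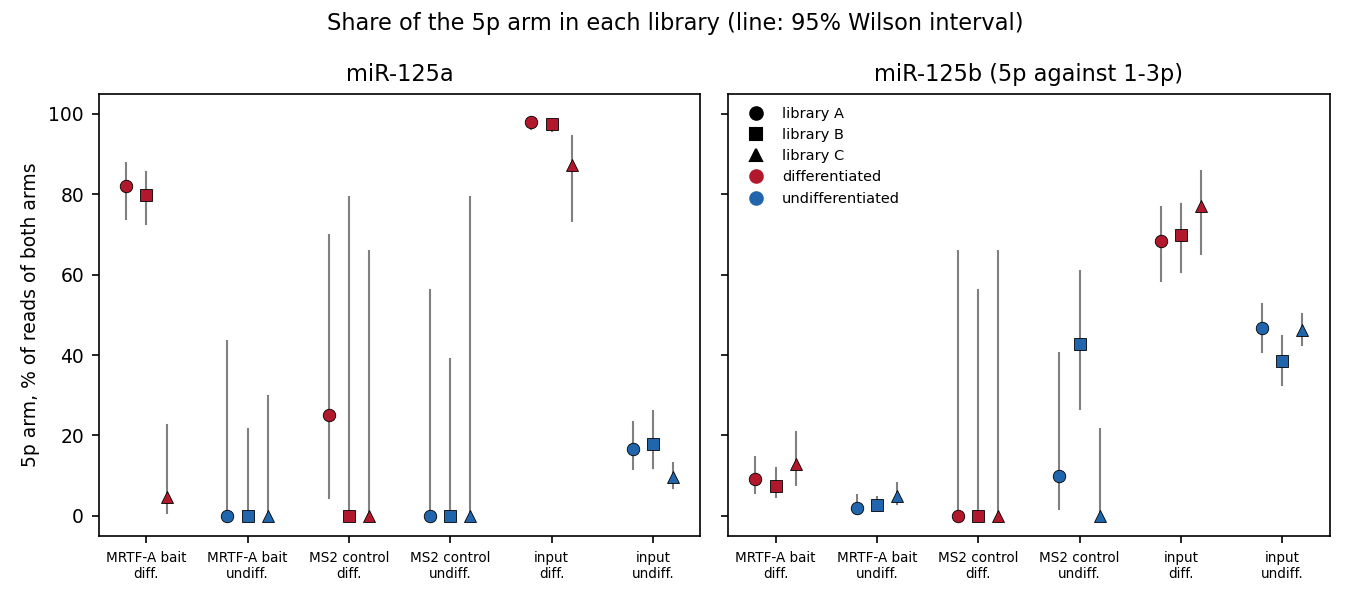
Percent of the reads of both arms that came from the 5p arm, by library, for miR-125a and for miR-125b set against miR-125b-1-3p, with 95% Wilson intervals as lines. For miR-125b every bait library lies below every input library; for miR-125a the differentiated input libraries lie at 87.2% to 97.9% and library C of the differentiated bait at 4.76%.

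Library C of differentiated cells stood apart for miR-125a-5p in both input and bait. Of names with a mean of at least 50 CPM, 4 of 201 in differentiated input were 4-fold or more below both other libraries in library C: miR-182-5p, miR-5099, miR-351-5p and miR-125a-5p. In the differentiated bait 13 of 207 were, and these included all 4 (100% of the input names and 30.8% of the bait names). No name was that low in library A or B of either group. This 4-fold limit was chosen after the values were seen, and what set library C apart was not tested.

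The names whose levels followed each member most closely were found by the Pearson correlation of log2(CPM + 10) over the 18 libraries, among 369 names. This is a description, since the libraries share kind, state and depth. miR-125a-5p was nearest to miR-351-5p (r = 0.915), miR-1968-5p (0.900) and miR-152-5p (0.828). miR-351-5p, which has the same seed, had 1516, 1747 and 179 CPM in differentiated input, against 177, 125.03 and 164 CPM in undifferentiated input. With the bait it had 802, 786 and 15.4 CPM in differentiated cells, so library C was low here as well. miR-125b-5p was nearest to miR-28a-3p (0.896), miR-103-3p (0.882) and miR-421-3p (0.881). miR-125a-3p was nearest to miR-18a-5p (0.772), miR-27a-5p (0.769) and miR-7a-5p (0.766), and miR-125b-1-3p to miR-31-5p (0.906), miR-449c-5p (0.893) and miR-130b-3p (0.891).

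**Figure D5:**
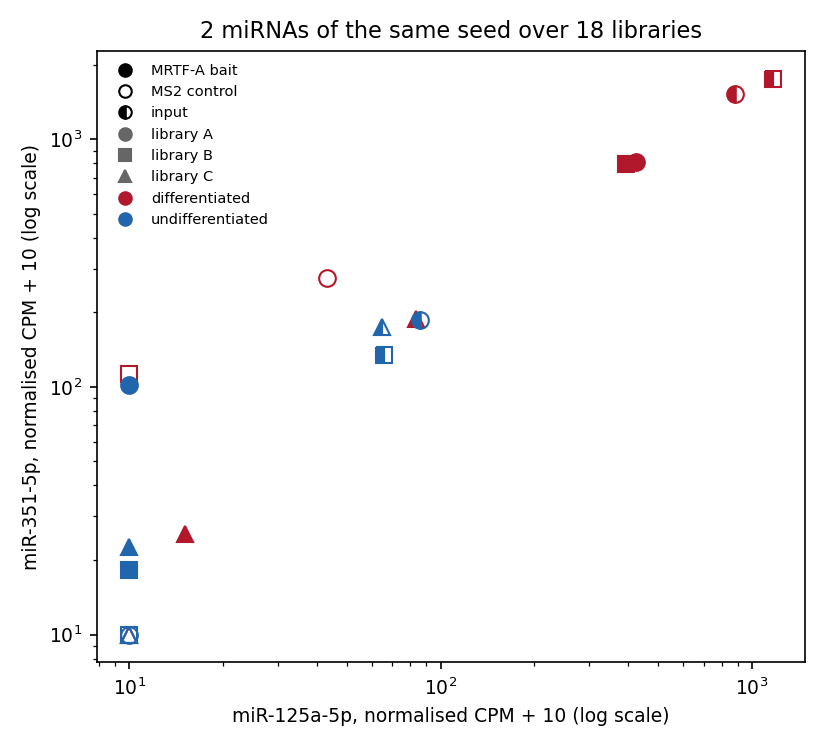
Normalised CPM plus 10 of miR-125a-5p against miR-351-5p, on log axes, in each of the 18 libraries; the fill shows the kind of library, the colour the state and the shape the library. Libraries A and B of differentiated bait and input lie at the upper right, and library C of both lies apart from them at lower levels.

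The relatives listed for comparison were the genomic neighbours, miR-125b-2-3p and both arms of miR-351, 15 names in all. miR-99b and let-7e lie 623 and 451 bases from miR-125a, while miR-100 lies 50503 bases from miR-125b-1. Over the MS2 control in differentiated cells, 4 of 9 tested relatives were higher with the bait and 4 lower, with a median of 1.91, against 57.4% higher, 21.9% lower and a median of 2.37 over all miRNAs. In undifferentiated cells 4 were higher and 2 lower, with a median of 1.80, against 43.2%, 17.2% and 1.16 over all. All 3 tested let-7 guides, which repress growth and cell cycle messages, rose in both states, let-7e-5p by 4.76 ± 0.35 in differentiated (limma, adjusted p = 1.94e-07) and 3.04 ± 0.35 in undifferentiated cells (limma, adjusted p = 6.74e-06; SE, n = 3 each). The miR-99 guide next to miR-125a, miR-99b-5p, fell by 3.80 ± 0.44 in differentiated (limma, adjusted p = 6.67e-06) and by 1.92 ± 0.44 in undifferentiated cells (limma, adjusted p = 0.0022; SE, n = 3 each). Neighbours of one cluster thus differed in direction in the eluates. In input 1 of 11 tested relatives was called higher in differentiated cells and 7 lower, with a median of -1.11, against 16% higher, 46.3% lower and -0.64 over all miRNAs.

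The Mrtfa 3'UTR annotated in GENCODE vM21 (GRCm38; chr15:81012281-81013284, minus strand, 1004 bases) was searched on its sense strand for letters that pair with the seeds. The sequence of the bait is not given in the sources used here. TCAGGG, which pairs with bases 2 to 7 of both guides, does not occur, and 28.9% of 10220 3'UTR windows of that length hold it. CACCTG, for miR-125a-3p, occurs once at position 675 (32% of windows). AACCCG, for miR-125b-1-3p, occurs once at position 299 (4.34% of windows). TGACTTG, for bases 2 to 8 of miR-125b-2-3p, occurs once at position 995 (9.45% of windows). The matches are printed with 5' to 3' flanks and the paired letters in capitals.
miR-125a-3p match, chr15:81012602-81012628: atgtatgtaacatgtagaCACCTGcca
miR-125b-1-3p match, chr15:81012978-81013004: ctaggtgggcttatagtcAACCCGcct
miR-125b-2-3p match, chr15:81012281-81012307: aaataaaacaaaaacacTGACTTGcca
A match describes letters and is neither a site nor a cause.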

How the data were processed

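Small RNA of 18 libraries was sequenced in 50 bp reads. Per the submitters' processing notes, the tools were featureCounts 1.4.6, edgeR 3.18.1, cutadapt 1.4.2 and Bowtie2 2.0.13 and the build GRCm38. For strand, settings and multiple matches the sources used here give nothing. As deposited, the signal is a normalised CPM by the authors. In each library every value was a whole multiple of the smallest (100% within 0.01 read), and reads were recovered from these steps. The log2 fold changes, p-values and false discovery rates in the authors' deposited table were not used for results.

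The unit is not raw counts, so limma 3.58.1 in R 4.3.3, with a trend on log2(CPM + 10), was the main test. Names were kept by filterByExpr of edgeR 4.0.16 on recovered reads. Benjamini-Hochberg adjustment covered all names tested in a comparison, and the threshold was 0.05. Fits took 12 eluates (bait over MS2 control), 18 libraries (over input) or 6 inputs. DESeq2 1.42.0 and edgeR's quasi-likelihood test on recovered reads, library totals, TMM and RLE factors, a pseudocount of 1, no filter, MS2 libraries with under 0.5% human-named reads, and leaving out each library were alternatives. Arm ratios had 0.5 read added and were permuted within states (400 arrangements). Floors are 3 reads. Column suffixes were checked for pairing by correlating deviations from group means. For differentiated bait and input every same-suffix pair was over 0.1. Input A with bait B (0.324) and input B with bait A (0.210) still exceeded A with A (0.155), so the pairing of A and B is not settled. No label states a pairing. Ratios and figures used scipy 1.17.1, matplotlib 3.10.9, pandas 2.3.3 and numpy 2.4.6 in Python 3.11.15. The fits were tested on simulated data. Members and lists were chosen with earlier results of these data known. The text names all members, 15 relatives, the 3 names most alike to each member in level, and the 3 hairpins above and below each in arm change.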

Additional observations from a re-analysis of the deposited data

Results flagged for a closer look

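miR-125a-3p stood on opposite sides of input in the 2 states, with no overlap of the libraries in either. Bait over input gave a log2 fold change of 1.88 in differentiated and -1.78 in undifferentiated cells. MS2 control over input gave 1.22 in differentiated and -2.54 in undifferentiated cells. The MS2 values in differentiated cells rest on 3, 1 and 2 reads. In library B 1 read gave 34.3 CPM, against 31.9 CPM in input library B, so the lack of overlap there comes down to that read. How many other miRNAs stand on opposite sides of input was not counted. The difference between the states was not tested, because the input level of this miRNA in the 2 states is what chose it. Its mean level with the bait was 97.0 CPM in differentiated and 102 CPM in undifferentiated cells, and with the MS2 control 62.7 CPM in differentiated and 63.7 CPM in undifferentiated cells, while input held 20.4 CPM in differentiated and 384 CPM in undifferentiated cells. Both MS2 means lie under the level that 3 reads in each library would give, 94.6 CPM in differentiated and 66.0 CPM in undifferentiated cells.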

How the results depend on the processing

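miR-125b-1-3p kept its direction and its call in all alternatives for bait over MS2 control (1.48 to 3.19 in differentiated, 1.64 to 3.61 in undifferentiated cells). Its bait over input stayed positive (2.25 to 3.59 in differentiated, 1.76 to 4.01 in undifferentiated cells), a description from which no call is read. The count of miRNAs whose bait difference depended on state, 22, was 0 with edgeR, 13 with DESeq2, 14 with library totals, 11 with a pseudocount of 1, 2 with no filter, 13 when MS2 libraries were limited to few human-named reads, and 4 to 30 leaving out each library (8 without differentiated bait library B, 14 without C, 4 without differentiated MS2 library B, 5 without undifferentiated MS2 library C). For bait over input in differentiated cells, no filter gave 307 calls, against 189. The cause was not tested for any of these.

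The members' calls over input rest on the input values that chose them and are listed for the processing alone. miR-125a-5p had no read in any undifferentiated eluate, so its values there are set by its input level and the processing. For bait over input in undifferentiated cells, calls were lost for miR-125a-5p with DESeq2 (-3.60), RLE (-1.93) and no filter (-2.84), for miR-125b-5p with DESeq2 (-0.54), RLE (-0.62), a pseudocount of 1 (-1.96) and no filter (-1.85), and for miR-125a-3p with DESeq2 (-0.61) and RLE (-0.55). In differentiated cells library totals gave a call for miR-125a-5p (-2.69) and lost that of miR-125a-3p (0.92). For MS2 control over input in undifferentiated cells, calls were lost for miR-125a-5p with edgeR (-6.82), DESeq2 (-2.17), RLE (-1.93), no filter and few human-named reads (both -2.84), for miR-125b-5p with DESeq2 (-0.36) and RLE (-1.57), and for miR-125a-3p with DESeq2 (-0.67) and RLE (-0.76). miR-125b-1-3p turned with DESeq2 (1.05), library totals (0.13) and RLE (1.06) and lost its call with edgeR (-0.86), a pseudocount of 1 (-0.84) and no filter (-0.82). In differentiated cells it gained a call with DESeq2 (1.39), library totals (0.77) and RLE (1.27), and miR-125a-3p lost its call with edgeR (1.58), no filter (1.22) and few human-named reads (1.14).

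Leaving out each library in undifferentiated cells gave, over input, -2.23 to -1.42 for miR-125b-5p with bait and -0.93 to -0.61 for miR-125b-1-3p with MS2 control. For miR-125a-5p it gave -2.91 to -2.70 with bait and with MS2 control alike. No undifferentiated eluate held a read of miR-125a-5p, so that range reflects the input libraries alone and says nothing of stability. In differentiated cells the ranges were -2.89 to -0.11 for miR-125a-5p with bait and 0.87 to 1.53 for miR-125a-3p with MS2 control. Arm ratios of miR-125a ran from -0.34 to 1.14 (bait over MS2 control), -3.48 to -1.996 (bait over input) and -3.58 to -2.87 (MS2 control over input), that of miR-125b from -2.06 to -0.94 (bait over MS2 control), and miR-125b-5p to miR-125a-5p from -0.10 to 1.53 (bait over MS2 control) and -0.23 to 0.98 (MS2 control over input). For miR-125b, 1 read added made bait over MS2 control pass (-2.03), and few human-named reads lost MS2 control over input (-2.96). With no value added, a ratio could be formed only for miR-125b bait over input.

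Same-suffix deviations correlated at -0.27 to 0.47 over all pairs of groups, and a library correlated best with its own suffix in 22 of 45 cases. Every pair was over 0.1 only for differentiated bait and input among the groups compared. A replicate block on the suffix in these 6 libraries, chosen after seeing the data, gave 259 calls, against 189. It let miR-125a-5p (-1.69) and miR-125b-5p (-0.86) pass for bait over input. Both calls rest on the input values that chose the members, and nothing is read from them. A replicate block over each whole fit gave 180 calls in input, against 195, and lost the call of miR-125b-1-3p for MS2 control over input in undifferentiated cells (-0.82); it changed no other call of a member. In differentiated cells 3 reads per MS2 library equal 94.6 CPM, so levels under that cannot be told from 0 there.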
